A study of Mus musculus with 56 samples.

Results

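Gluconeogenesis makes glucose from lactate, glutamine, glycerol and other non-sugar precursors, and in mammals the liver and the kidney cortex are the tissues that release this glucose to the blood. In the kidney the pathway runs in the proximal tubule, where it also uses up acid. 6 genes of the pathway were followed here, of 17027 genes in the kidney table and 12007 that could be tested. Pcx (pyruvate carboxylase) turns pyruvate into oxaloacetate, and Pck1 (cytosolic phosphoenolpyruvate carboxykinase) turns oxaloacetate into phosphoenolpyruvate. Fbp1 (fructose-1,6-bisphosphatase) removes a phosphate further up the chain. G6pc (the catalytic subunit of glucose-6-phosphatase) frees glucose from glucose-6-phosphate, which Slc37a4 carries into the endoplasmic reticulum for it. Ppargc1a encodes the coactivator PGC-1alpha, which is best known in this pathway from fasted liver. The genes were chosen by name, from the enzymes and transporter that gluconeogenesis does not share with glycolysis plus this one coactivator.

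The kidneys came from female C57BL/6J mice of 9 weeks, kept in 12 h of light and 12 h of dark and given food for 7 days only in the dark (NRF, nighttime-restricted feeding, the reference) or only in the light (DRF, daytime-restricted feeding). RNA was sequenced at 7 time points 4 h apart, from ZT0 (lights on) through ZT12 (lights off) to ZT24, with 4 libraries in each of the 14 groups. ZT0 and ZT24 fall at the same clock time. Levels are TPM, read numbers divided by gene length and scaled to the same sum in every library, rebuilt from the deposited values, in which all 6 genes gave whole read numbers in all 56 libraries. By the labels all groups were of 1 strain, and they differed in feeding regimen and hour. The labels did not tie a library to a named animal, so the p-values measure the spread between these libraries.

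Proximal tubule markers were high throughout: the 7 markers summed, among them Lrp2 and Slc34a1, came to 7660 to 14296 TPM in a library. These are whole-kidney levels, in which fewer cells of a type and less RNA per cell cannot be told apart. Liver and fat also express several of the 6 genes, and RNA of markers of both tissues was detected. Whether this RNA came from those tissues or from kidney cells was not tested. The 9 liver markers summed reached 257 to 833 TPM, and the 6 fat markers 19.6 to 3291 TPM with a median of 51.9. Of 5 adrenal markers 4 were summed and stayed between 4.07 and 7.33 TPM. The 1 blood marker summed, Alas2, ranged from 4.54 to 45.2 TPM. None of the markers summed was at 0 in every library. The 6 markers of the medulla and distal nephron came to 4670 to 11010 TPM.

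By level the 6 genes spread over a wide range. Pck1 averaged 6656 TPM over the 56 libraries and ranked 5 among the genes tested. Fbp1 followed at 2261 TPM, G6pc at 1150, Pcx at 352, Slc37a4 at 317 and Ppargc1a at 70.0 TPM. Between 2357 and 5139 reads lay behind each value of Ppargc1a, the gene with the fewest, and 43115 to 263424 behind each value of Pck1. On build GRCm38.p6 in the RefSeq annotation, Pck1 (Entrez ID 18534) lies on chromosome 2 from 173153073 to 173159274 on the plus strand and G6pc (14377) on chromosome 11 from 101367716 to 101377903 on the plus strand. Slc37a4 (14385) lies on chromosome 9 from 44396946 to 44402966, and Pcx (18563) on chromosome 19 from 4510472 to 4621752, both on the plus strand. Fbp1 (14121) lies on chromosome 13 from 62864753 to 62888298 and Ppargc1a (19017) on chromosome 5 from 51454249 to 52115853, both on the minus strand. The 6 genes thus sit on different chromosomes.

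The promoters of 3 of the genes are shown because these genes gave the clearest changes described further on, and because cAMP and nuclear receptors are known regulators of gluconeogenesis. Each run is the 150 bases before the RefSeq start of the gene on build GRCm38.p6, read 5′ to 3′ along the gene, with motif matches in capitals.

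Pck1 (chr2:173152923-173153072, plus strand): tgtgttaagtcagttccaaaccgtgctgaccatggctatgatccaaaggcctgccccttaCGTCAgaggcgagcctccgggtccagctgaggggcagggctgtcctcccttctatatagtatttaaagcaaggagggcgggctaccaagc
G6pc (chr11:101367566-101367715, plus strand): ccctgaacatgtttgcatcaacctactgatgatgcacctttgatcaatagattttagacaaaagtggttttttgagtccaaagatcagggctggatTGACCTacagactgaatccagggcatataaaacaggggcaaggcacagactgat
Slc37a4 (chr9:44396796-44396945, plus strand): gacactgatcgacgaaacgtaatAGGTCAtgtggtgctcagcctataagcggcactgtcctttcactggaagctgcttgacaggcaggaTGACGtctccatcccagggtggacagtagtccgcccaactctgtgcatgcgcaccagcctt

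5 motifs were searched on both strands in the 250 bases before the start of 5 of the genes. The window listed for Ppargc1a lies inside the longer gene model given above and was left out. That of Fbp1 was kept, though it reaches to base 62888283 and so takes in the first bases of the gene model given above. TGACG, the core of the cAMP response element, was found once each in Pck1 (minus strand, 90 to 86 bases before the start) and Slc37a4 (plus strand, 61 to 57). It is in 17.8% of 32851 mouse promoters. AGGTCA, a nuclear receptor motif present in 14% of promoters, was in G6pc (minus strand, 54 to 49) and in Slc37a4 (plus strand, 127 to 122). CACGTG, the E-box bound by clock proteins and present in 6.0% of promoters, was in Pcx alone among the 5 genes, 248 to 243 bases before the start. Neither TGTTTAC (forkhead, 3.2% of promoters) nor TGTTCT (glucocorticoid receptor, 16.1%) was found in any of the 5 windows, and Fbp1 held none of the 5 motifs. None of the matches overlapped another. A match is a description of these letters and no measurement of binding.

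The first question was how each gene ran through the day under each regimen. Daily waves were measured with limma as cosines of 24 h through log2(TPM + 1) in the 28 libraries of a regimen, and p-values were adjusted over the 12007 genes by the Benjamini-Hochberg method, with 0.05 as the threshold. Under NRF 5 of the 6 genes passed, where 54.4% of all genes tested did. Under DRF 2 passed, G6pc and Slc37a4, where 36.3% of all genes did. Fbp1 passed in neither.

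**Figure D1:**
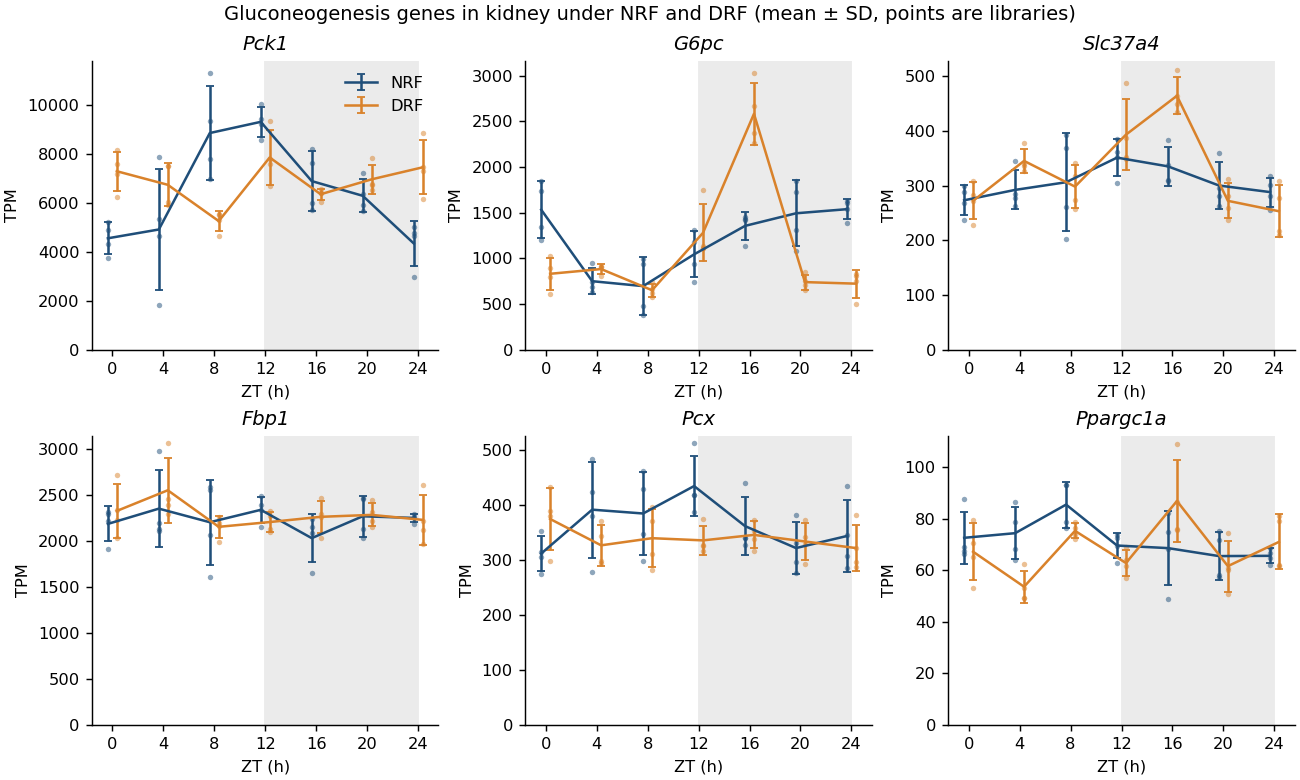
Level of each gene in TPM (vertical axis, from 0) against ZT in h (horizontal axis) under NRF (blue) and DRF (orange); points are single libraries, lines join group means, bars are SD over 4 libraries and grey marks the dark phase. G6pc under DRF stands alone at ZT16 with 2584 TPM, and Pck1 under NRF runs from 4558 TPM at ZT0 to 9324 TPM at ZT12.

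Pck1 followed a clear daily wave under NRF and a much flatter line under DRF. Under NRF the 4 libraries held 4914, 5245, 4333 and 3741 TPM at ZT0, at the end of the meal. At ZT12, at the end of the fast, they held 10045, 9456, 9230 and 8566 TPM. All 4 libraries at ZT12 were above all 4 at ZT0. The ratio of the highest group mean under NRF, at ZT12, to the lowest, 4352 TPM at ZT24, was 2.14. The fitted wave had an amplitude of 0.55 ± 0.08 (SE) on the log2 scale and peaked at ZT12.4 ± 0.65 h, with an adjusted p of 0.00021 in limma. Under DRF the lowest group was ZT8, where the libraries held 5498, 5564, 5318 and 4666 TPM, and the highest was ZT12 at 7866 ± 1116 TPM (SD, n = 4). The 24-h amplitude there was 0.12 ± 0.09, and limma gave an adjusted p of 0.25.

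The waves of Pck1 under the 2 regimens differed. The cosine difference had a size of 0.62 on the log2 scale and a limma adjusted p of 0.00011, with 45.4% of all genes and 3 of the 6 (Pck1, G6pc and Ppargc1a) past the threshold in this test. At the same clock hour, Pck1 was higher under DRF at ZT0 by 1.61-fold (limma adjusted p = 0.020), at ZT4 by 1.55-fold (0.023) and at ZT24 by 1.73-fold (0.0079). At ZT8 it was lower under DRF, at 0.60 of the NRF level, with a limma adjusted p of 0.015. Differences of DRF from NRF at ZT12, ZT16 and ZT20 lay between -0.25 and 0.15 log2 and did not pass. One library weighs on the ZT4 value: the NRF group there held 7880, 5329, 1808 and 4655 TPM, and without replicate 3 of every group the DRF minus NRF difference at ZT4 was 0.15 log2 in place of 0.63. Of the other 3 differences each kept its sign, with the lowest sizes 0.66 (ZT0), 0.62 (ZT24) and -0.55 (ZT8), but each missed the threshold in 2 to 4 of 14 other settings.

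G6pc was the gene with the largest swing. Under DRF it stayed between 651 and 883 TPM at ZT0, ZT4, ZT8, ZT20 and ZT24, was at 1280 ± 311 TPM (SD, n = 4) at ZT12, and reached 2372, 2268, 3029 and 2668 TPM at ZT16. Every library of that ZT16 group was above every other library of the series, and 4 h later, at ZT20, the level was 740 ± 81.6 TPM. The ratio of the highest to the lowest group mean under DRF was 3.97. Under NRF the rise was lower and longer: 1044 TPM at ZT12, 1356 at ZT16, 1494 at ZT20, 1539 at ZT24 and 1533 at ZT0, then 750 at ZT4 and 696 at ZT8. The NRF groups next to each other in that order from ZT16 to ZT0 overlapped in range.

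In the cosine fits G6pc had nearly equal amplitudes under the 2 regimens, 0.67 ± 0.12 log2 under each. Its peak fell at ZT19.8 ± 0.66 h under NRF and at ZT15.2 ± 0.68 h under DRF, with limma adjusted p-values of 2e-05 and 0.0010. The DRF peak was thus earlier, with a shift of -4.64 ± 0.95 h (95% interval -6.54 to -2.74 h) where the meal had moved by 12 h, and the 2 waves differed with a limma adjusted p of 0.00041. A single cosine describes the sharp DRF peak only in part: a 12-h term added to it had an amplitude of 0.65, with maxima near ZT3.06 and ZT15.1, and a limma adjusted p of 1.3e-06. Under NRF the 12-h term of G6pc had an amplitude of 0.24 and an adjusted p of 0.41.

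Slc37a4, the transporter that feeds glucose-6-phosphate to G6pc, had its DRF maximum at the same hour. At ZT16 under DRF the libraries held 449, 434, 463 and 512 TPM, against 384, 308, 310 and 337 TPM under NRF, with no overlap, and the difference was 1.39-fold (limma adjusted p = 0.037). That call was lost in 6 of 14 other settings, among them leaving out libraries high in Alb, which gave 0.40 log2. By ZT20 under DRF they were at 311, 258, 281 and 237 TPM. The amplitude was 0.31 ± 0.06 log2 under DRF with a peak at ZT13.1 ± 0.82 h, and 0.15 ± 0.06 under NRF with a peak at ZT13.6 ± 1.7 h. Limma adjusted p-values were 0.0020 and 0.047. The shift of -0.50 ± 1.87 h had a 95% interval of -4.26 to 3.25 h, and the 2 waves did not pass the test of their difference (adjusted p = 0.24). Like G6pc, Slc37a4 carried a 12-h term under DRF (amplitude 0.29, maxima near ZT3.35 and ZT15.3, limma adjusted p = 0.00031). Over the 14 group means the 2 genes had a Pearson correlation of 0.60, the highest of the 15 pairs among the 6 genes, given as a description only since all groups share the same libraries for both genes. Pck1 was the third gene with a 12-h term under DRF (amplitude 0.17, limma adjusted p = 0.023). These 3 of 6 compare with 24.8% of all genes tested under DRF. Under NRF none of the 6 passed in limma, only G6pc had an unadjusted p under 0.05 (0.039), and 0.700% of all genes passed.

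The remaining genes had small 24-h waves. Pcx under NRF ran from 312 ± 32.3 TPM at ZT0 to 435 ± 54.7 TPM at ZT12, a ratio of 1.39, with an amplitude of 0.19 ± 0.05 log2, a peak at ZT9.92 ± 1.1 h and a limma adjusted p of 0.022. Under DRF its group means lay between 322 and 375 TPM, with an amplitude of 0.02 ± 0.06. The test of the difference between the waves of Pcx gave an adjusted p of 0.060. Ppargc1a under NRF peaked at ZT7.19 ± 1.4 h with an amplitude of 0.16 ± 0.06 log2 (limma adjusted p = 0.036). Under DRF its group means ran from 53.6 TPM at ZT4 to 86.9 TPM at ZT16, a ratio of 1.62 without overlap in range. The DRF amplitude of 0.14 ± 0.06 did not pass (limma adjusted p = 0.21), while the difference between the 2 waves of Ppargc1a had an adjusted p of 0.044. That call was lost in 9 of the other settings, and with replicate 1 of every group left out the size of the difference went from 0.26 to 0.15 log2 and the NRF amplitude from 0.16 to 0.08. The NRF waves of Pcx and Slc37a4 also missed the threshold in some settings, Pcx whenever replicate 2, 3 or 4 was left out. Fbp1 stayed between 2031 and 2552 TPM in all 14 groups, and its amplitudes were 0.04 ± 0.05 and 0.05 ± 0.04 log2.

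Ordered by mean level over the 14 groups, neighbouring groups mostly overlapped in range. For G6pc 1 of the 13 steps separated non-overlapping neighbours, that from DRF ZT16 at 2584 TPM to NRF ZT24 at 1539 TPM. For Pck1 it was the step from NRF ZT20 at 6298 TPM to DRF ZT8 at 5262 TPM. No step separated neighbours for the other 4 genes.

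The second question was whether the fast or the dark phase went with each change. 8 groups bear on it. ZT4 and ZT8 are in the light, ZT16 and ZT20 in the dark, and each hour has a fed and a fasted group. ZT0, ZT12 and ZT24, the hours when food and light changed, are not in these contrasts. A peak or trough at those hours, such as that of Pck1 under NRF, is therefore not covered. Fasted mice are NRF at ZT4 and ZT8 and DRF at ZT16 and ZT20. The feeding effect is the mean of the 4 fasted minus that of the 4 fed groups, and the day-night effect the mean of the 4 dark minus that of the 4 light groups, both taken from a limma fit of all 14 groups. The median absolute size of either effect over all genes was 0.09 log2.

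G6pc was higher in the dark on average, though not in every dark group. Its day-night effect was 0.94 ± 0.11 log2 (SE; 95% interval 0.73 to 1.16), a 1.92-fold higher level in the dark, with a limma adjusted p of 1.2e-09. By absolute size it ranked 46 among the 12007 genes. Its feeding effect was -0.08 ± 0.11 log2, with an interval of -0.30 to 0.13 and an adjusted p of 0.58. G6pc was the only gene of the 6 with a called day-night effect, where 36.6% of all genes passed, 8.29% of them higher and 28.3% lower in the dark as shares of all genes. Within the dark the 2 hours gave opposite differences. At ZT16, fasted DRF kidneys held 1.90-fold more G6pc than fed NRF kidneys (limma adjusted p = 0.0057). At ZT20, fasted DRF kidneys held 0.51 of the fed NRF level (limma adjusted p = 0.00086). This DRF group, at 740 TPM, was no higher than the light groups, which lay between 651 and 883 TPM. The NRF group at ZT20 was at 1494 TPM. In the light fed and fasted kidneys were within 0.25 log2 of each other at both hours. With ZT4 and ZT16 alone the feeding effect was 0.34 (adjusted p = 0.11), and with ZT8 and ZT20 alone it was -0.50 (adjusted p = 0.010), while the day-night effect passed in both (1.20 and 0.69 log2).

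Liver markers were higher in the DRF ZT16 libraries than in NRF at the same hour. They summed to 454 to 691 TPM, against 314 to 380 TPM in NRF at ZT16, and albumin (Alb) was at 63.8, 71.8, 102 and 189 TPM in the order of the G6pc values given above. The 2 libraries with less Alb held 2372 and 2268 TPM of G6pc, but their Alb was also above its median of 38.6 TPM over all libraries. Whether liver RNA had a part in this G6pc level was not tested. Without the 6 libraries of the series at or over 100 TPM of Alb, the DRF minus NRF difference of G6pc at ZT16 was 0.78 log2 and its adjusted p 0.12. The day-night effect of G6pc passed in all settings tried.

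Pck1 had neither effect on average in these contrasts, which leave out the hours of its NRF peak and trough. Its feeding effect was 0.04 ± 0.11 log2 (interval -0.18 to 0.25) and its day-night effect 0.13 ± 0.11 (interval -0.09 to 0.34), with adjusted p-values of 0.81 and 0.38. The feeding estimate had opposite signs at the 2 pairs of hours. At ZT4 and ZT16, fasted minus fed was -0.36 ± 0.15 log2 (adjusted p = 0.081). At ZT8 and ZT20 it was 0.44 ± 0.15 log2, a 1.36-fold higher level in fasted kidneys, with a limma adjusted p of 0.025.

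Ppargc1a was higher in fasted kidneys. Its feeding effect was 0.22 ± 0.07 log2 (interval 0.09 to 0.36), a 1.17-fold higher level in fasted kidneys, with a limma adjusted p of 0.0064. It was the only one of the 6, where 35.3% of all genes passed, 21.5% higher and 13.8% lower in fasted kidneys. The difference sat at ZT4 and ZT16, where it was 0.41 ± 0.09 log2 (adjusted p = 0.0011), against 0.04 ± 0.09 at ZT8 and ZT20. At ZT4 the fasted NRF libraries held 78.9, 64.0, 86.6 and 68.2 TPM and the fed DRF libraries 53.1, 49.3, 49.4 and 62.5 TPM, without overlap. At ZT16 the fasted DRF libraries held 109, 86.5, 75.7 and 76.0 TPM and the fed NRF libraries 48.9, 82.4, 74.8 and 68.2 TPM, with overlap. Leaving out replicate 1 of every group brought the feeding effect to 0.13 log2 and its adjusted p to 0.17. The day-night effect was -0.03 ± 0.07 over all 8 groups, but 0.27 at ZT4 and ZT16 and -0.34 at ZT8 and ZT20, and both of these passed (adjusted p = 0.018 and 0.0056).

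**Figure D2:**
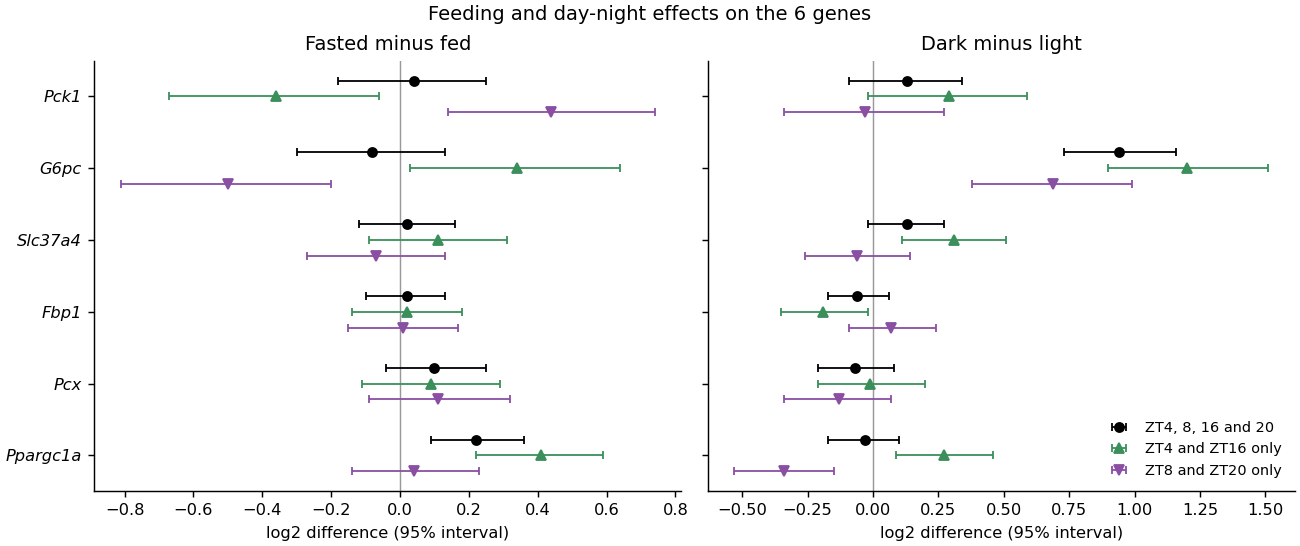
Feeding effect (left, fasted minus fed) and day-night effect (right, dark minus light) in log2 units on the horizontal axes for each gene; circles use ZT4, ZT8, ZT16 and ZT20, upward triangles ZT4 and ZT16, downward triangles ZT8 and ZT20, and bars are 95% intervals. G6pc lies to the right of 0 in all 3 day-night estimates (0.94, 1.20 and 0.69), while the feeding estimates of Pck1 and G6pc at the 2 pairs of hours fall on opposite sides of 0.

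For Slc37a4, Fbp1 and Pcx neither mean effect passed. Their feeding effects were 0.02, 0.02 and 0.10 log2, with intervals that reached at most 0.25. Their day-night effects were 0.13, -0.06 and -0.07 log2. In the hours ZT4 and ZT16, Slc37a4 was higher in the dark by 0.31 ± 0.10 log2 (limma adjusted p = 0.011), and at ZT8 and ZT20 its day-night effect was -0.06. So 4 of the 6 genes passed in neither effect, where 44.6% of all genes did. None passed in both in limma, at an adjusted or an unadjusted p under 0.05, where 16.5% of all genes passed.

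An interaction of feeding with day and night is, in this design, the same as a difference between the regimens, and the 2 cannot be told apart. None of the 6 genes passed it in limma, where 4.46% of all genes did, and Slc37a4 alone had an unadjusted p under 0.05 (0.045). Taken at ZT4 and ZT16 alone, it passed for G6pc (-1.18 ± 0.30 log2, adjusted p = 0.0081) and Slc37a4 (-0.72 ± 0.20, adjusted p = 0.015). At ZT8 and ZT20 alone the estimates had the opposite sign and did not pass, 0.97 ± 0.30 log2 for G6pc (limma adjusted p = 0.066) and 0.14 ± 0.20 for Slc37a4. Mean levels over the whole day differed little between the regimens: DRF minus NRF lay between -0.11 log2 for Pcx and 0.10 for Slc37a4. None of the 6 passed in limma, only Pcx had an unadjusted p under 0.05 (0.047), and 9.18% of all genes passed.

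The third question was whether a gene kept its clock hour or its distance to the meal when the meal moved by 12 h. Each DRF group was set against NRF at the same clock hour and against NRF 12 h away, at the matching meal hour. A gene that followed meals fully would have no difference in the second set. Per2, a clock gene, had a root mean square difference of 1.30 log2 matched by clock and 2.23 matched by meal. Its cosine shifted by -3.34 ± 0.43 h. Arntl, the gene for BMAL1, had 0.87 and 2.23 log2 and a shift of -2.07 ± 0.30 h. Pdk4, which restrains pyruvate oxidation in fasting, went the other way with 2.40 and 1.05 log2 and a shift of -11.42 ± 0.55 h. Angptl4, an inhibitor of lipoprotein lipase that rises in fasting, had 2.69 and 1.02 log2 and a shift of 9.55 ± 0.46 h.

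Among the 6 genes G6pc had the smaller difference when matched by clock, with 0.71 log2 against 0.94 matched by meal. The same order held for Slc37a4 (0.24 and 0.38), Fbp1 (0.09 and 0.14) and, barely, Ppargc1a (0.26 and 0.27). It was the other way for Pck1 (0.51 and 0.46) and Pcx (0.20 and 0.18). So 2 of the 6 had the smaller difference when matched by meal, as did 50.5% of all genes tested. These are descriptions with no test, and the median over all genes was 0.17 log2 in both.

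Of the 42 clock-matched comparisons of the 6 genes 10 passed, where 16.4% did over all genes, and of the 36 meal-matched comparisons 10 passed, where 17.6% did. The 2 sets share every library. The largest was G6pc at 4 h into the fast: DRF at ZT16 was 3.47-fold above NRF at ZT4 (2584 against 750 TPM, limma adjusted p = 9.1e-09), though both groups were fasted for the same time. At 8 h into the meal, DRF at ZT8 held 0.44 of the G6pc level of NRF at ZT20 (adjusted p = 9.4e-05). At 4 h into the meal the ratio was 0.65 (adjusted p = 0.037), and at 8 h into the fast the difference of 0.20 log2 did not pass (interval -0.23 to 0.63). Slc37a4 at 4 h into the fast was 1.59-fold higher in DRF at ZT16 than in NRF at ZT4 (adjusted p = 0.00020). At the change from meal to fast, DRF at ZT12 against NRF at ZT0 and ZT24, Pck1 was 1.78-fold and Slc37a4 1.39-fold higher under DRF (adjusted p = 0.00095 and 0.0040). At the change from fast to meal, DRF at ZT0 and ZT24 against NRF at ZT12, Slc37a4 was at 0.74 (adjusted p = 0.016) and Pck1 at 0.79 of the NRF level (adjusted p = 0.28).

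**Figure D3:**
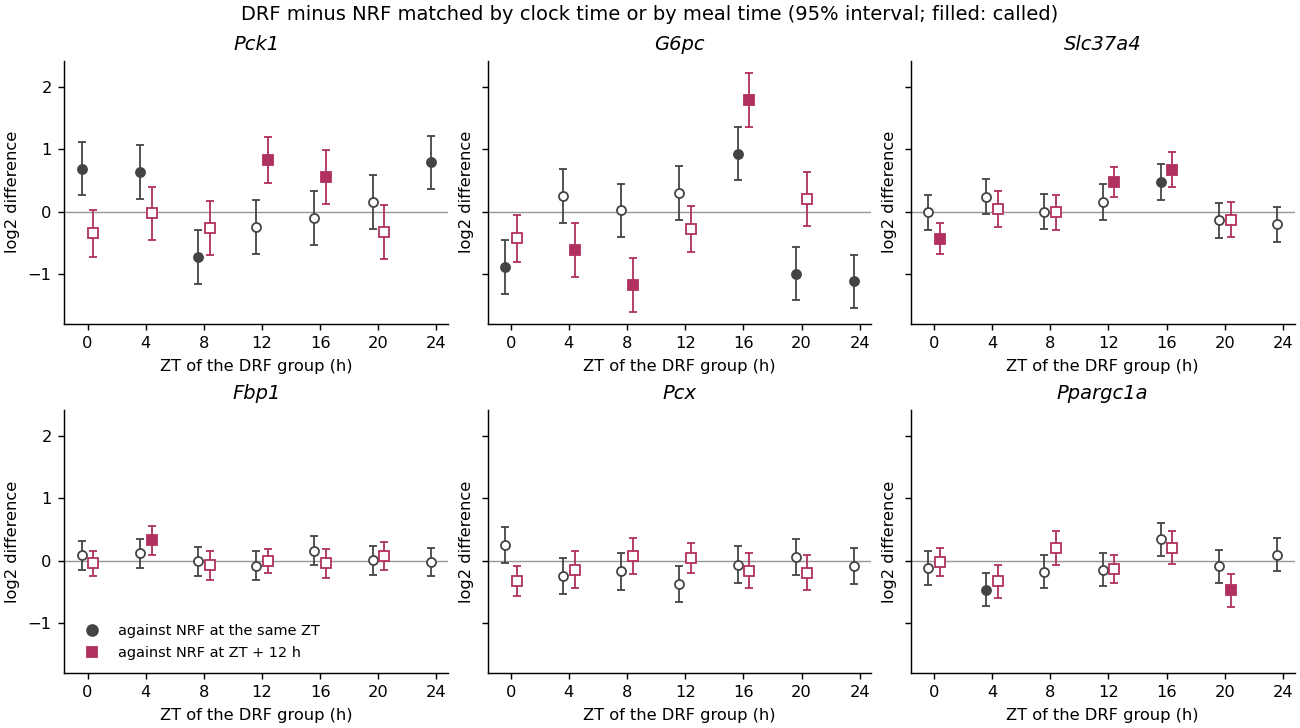
DRF minus NRF in log2 units (vertical axis) at each ZT of the DRF group (horizontal axis, in h), against NRF at the same ZT (grey circles) or at ZT + 12 h (red squares, with ZT0 and ZT24 averaged); bars are 95% intervals, and filled symbols passed the adjusted threshold. The meal-matched difference of G6pc at ZT16 is the highest point at 1.79, and all points of Fbp1 and Pcx but 1 are open.

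The other passed pairs were smaller. Ppargc1a in DRF at ZT4 was at 0.73 of NRF at the same hour (limma adjusted p = 0.0066), and in DRF at ZT20 it was at 0.72 of NRF at ZT8, both at 8 h of fasting (adjusted p = 0.011). Pck1 in DRF at ZT16 was 1.47-fold above NRF at ZT4 (adjusted p = 0.041), a value of 0.55 log2 that fell to 0.16 without replicate 3. Fbp1 passed in 1 comparison, 1.26-fold higher in DRF at ZT4 than in NRF at ZT16 (adjusted p = 0.036), which missed the threshold in 6 of 14 other settings and was 0.14 log2 without replicate 2. Of the 20 pairs that passed, 7 did so in all 14 other settings and none changed sign. 5 of these 7 were of G6pc (DRF against NRF at ZT0, ZT20 and ZT24, DRF ZT8 against NRF ZT20 and DRF ZT16 against NRF ZT4). The others were Pck1 in DRF ZT12 against NRF ZT0 and Slc37a4 in DRF ZT16 against NRF ZT4.

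Fat markers moved with some NRF groups: summed, they reached 3291 TPM in 1 library of NRF ZT12 and 2087 TPM in 1 of NRF ZT16. Adipoq was at 366, 12.4, 45.6 and 0.858 TPM at NRF ZT12, where Pck1 was at 10045, 9456, 9230 and 8566 TPM in the same libraries. Without the 3 libraries at or over 100 TPM of Adipoq, the wave of Pck1 under NRF and its difference from DRF still passed. Some liver markers differed in the feeding and day-night contrasts. Of the 7 tested, Alb (1.09 log2, limma adjusted p = 0.0045) and Fgb (0.53, adjusted p = 0.0061) were higher in the dark, as G6pc was, and Fga (0.56, adjusted p = 5.3e-06) and Fgb (0.42, adjusted p = 0.029) were higher in fasted kidneys, as Ppargc1a was. Cps1 and Cyp7a1, enzymes made mainly in hepatocytes, had medians of 0.0698 and 0 TPM. In single libraries they reached at most 4.59 and 0.441 TPM. Without the libraries high in Alb, the day-night effect of G6pc was 0.89 log2 (limma adjusted p = 1.5e-07) and the feeding effect of Ppargc1a 0.26 log2 (adjusted p = 0.0050). Of the 6 markers of the medulla and distal nephron, Scnn1g was lower in fasted kidneys (-0.16 log2, adjusted p = 0.029), Aqp3 was lower (-0.42, adjusted p = 3.6e-06) and Umod higher (0.26, adjusted p = 0.032) in the dark. The part of these in the results was otherwise not tested. Of the 7 proximal tubule markers tested, none passed in the feeding effect in limma, at an adjusted or an unadjusted p under 0.05, and 1 (Slc22a6, -0.19 log2) passed in the day-night effect.

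The enzymes around the pathway were read from lists of related genes. These lists were chosen with earlier results of these data known, so their counts are descriptions only. The enzymes that gluconeogenesis shares with glycolysis in the opposite direction gave no feeding call: of 7 tested of 8 listed, none passed in the feeding effect, 1 was higher and 2 were lower in the dark, and the median feeding effect was 0.01 log2. Pgam1 (phosphoglycerate mutase), Gpi1 (glucose-6-phosphate isomerase) and Eno1 (enolase) had feeding effects of -0.06, 0.04 and -0.03 log2 that did not pass. In this list limma gave 1 unadjusted p under 0.05 in the feeding effect, from Pgam1.

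Of the other forms of the members, 4 of 5 were tested. Ppargc1b, the gene for the related coactivator PGC-1beta, was 1.41-fold higher in fasted kidneys (0.49 ± 0.05 log2, limma adjusted p = 5.9e-10) and shifted by -9.58 ± 0.84 h. Pck2, the mitochondrial carboxykinase, averaged 8.47 TPM against the 6656 of Pck1 and was 1.09-fold higher in fasted kidneys (adjusted p = 0.0031). In the dark Pck2 was at 0.86 of the light level (limma adjusted p = 3.9e-06). Fbp2 and G6pc3 had feeding effects of 0.03 and 0.01 log2 that did not pass, and were lower in the dark by 0.39 and 0.10 log2 (adjusted p = 0.00016 and 0.0016). G6pc3 thus moved opposite to G6pc, whose day-night effect was 0.94.

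Of the 23 genes of substrate supply, 2 were higher and 4 lower in fasted kidneys and 17 did not pass, where 21.5% of all genes were higher and 13.8% lower. The 2 that were higher were Slc16a1 and Slc5a12. Slc16a1 (the transporter MCT1) was 1.63-fold higher (0.70 ± 0.09 log2, limma adjusted p = 2e-08). Slc5a12 (a sodium-coupled lactate transporter of the tubule) was 1.55-fold higher (0.63 ± 0.12, limma adjusted p = 2.5e-05). Slc16a1 was also 1.82-fold higher in the dark (adjusted p = 1.2e-10). Gpt2 (alanine aminotransferase) was at 0.81 in fasted kidneys (adjusted p = 0.00035) and at 0.73 in the dark (limma adjusted p = 5.1e-07). Slc38a3, a glutamine transporter of the tubule, had a feeding effect of 0.23 ± 0.10 log2 that did not pass (adjusted p = 0.058). In the dark Slc38a3 was at 0.74 of the light level (limma adjusted p = 0.00047).

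A further list held enzymes of glycolysis and of the control of pyruvate oxidation. Of its 13 tested genes, 5 were higher and none lower in fasted kidneys in limma, none of them lower at an unadjusted p under 0.05 either, where 21.5% of all genes were higher and 13.8% lower, with a median of 0.12 log2 against 0.028 over all genes tested. Of these 5, Pdk1, Pdk2 and Pdk4 encode kinases that shut pyruvate dehydrogenase and so spare pyruvate, and the other two were Hk1 and Pfkfb2. Pdk4 was 6.19-fold higher (limma adjusted p = 3.6e-16) and Pdk2 1.22-fold (adjusted p = 4.2e-05), while Pdk1 was 1.12-fold (adjusted p = 0.012) and Pfkfb2, which sets the level of a glycolytic activator, 1.14-fold higher (adjusted p = 0.0020). Hk1 (hexokinase 1) was 1.16-fold higher (adjusted p = 0.046), and Hk2 at a mean of 1.39 TPM had -0.34 ± 0.25 log2 and did not pass.

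Of the 23 regulators tested, 12 were higher and 3 lower in fasted kidneys, where 21.5% of all genes were higher and 13.8% lower, with a median of 0.13 log2. As for the other lists, the choice of genes was not independent of these data, and the counts are a description only. Irs2, an adaptor of the insulin receptor, was 1.70-fold higher (limma adjusted p = 2.1e-07), Ppara 1.37-fold (8.1e-06), Foxo3 1.22-fold (0.0011) and Nr0b2 1.21-fold (0.0088). None of these 4 passed in the day-night effect. Ppargc1a, at 1.17-fold, was below these 4 in size.

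**Figure D4:**
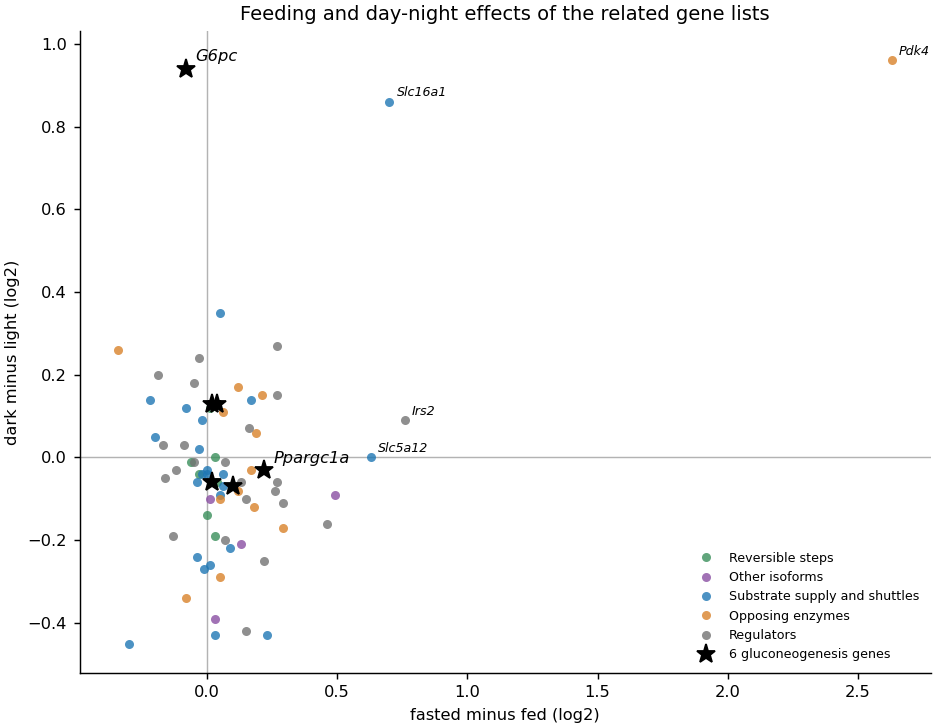
Feeding effect (horizontal axis) against day-night effect (vertical axis), both in log2 units, for every tested gene of the 5 related lists (coloured points) and the 6 gluconeogenesis genes (black stars). G6pc stands at -0.08 and 0.94, away from the fasting-induced Pdk4 at 2.63 and 0.96, and the other 5 stars lie close to the origin.

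Some genes outside the pathway had group means close in shape to those of a member, by Pearson correlation of log2 levels over the 14 group means among 8438 genes of at least 10 TPM. For Pck1 these were Col27a1 (0.93), Atxn7l2 (0.87) and Slc30a2 (0.85). For G6pc they were Ints13 (0.88), Pik3r1 (0.88), a subunit of the kinase that carries the insulin signal, and Ston1 (0.87). Slc37a4 was followed by Oxnad1 (0.89), Sord (0.88), which makes fructose from sorbitol, and Aqp11 (0.87). Ppargc1a was followed by Shroom2 (0.89), Cytip (0.87) and Ppat (0.86). Pcx was followed by the gene with Entrez ID 217615 (0.89), Riok2 (0.87) and Lonp1 (0.84), and Fbp1 by Ces2e (0.85), Ppa2 (0.85) and Dhrs7b (0.83). With this many candidates such values are a description only.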

How the data were processed

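Kidney RNA was sequenced by the study in 56 libraries, 14 groups of 4. The submitters' processing notes name HISAT2, Bowtie2, RSEM and the builds GRCm38.p6 and mm10, without roles or versions. The values the authors deposited are a score per gene: log2 of a scaled read number plus 1, divided by gene length. From these, whole reads were recovered for 87.24% of 17027 genes (99.53% of their values above 0 within 0.1 of a whole read), 21.99 to 24.34 M reads per library. GENCODE M21 lengths were used, or for some genes, Pcx among them, a length found by search. The design planned for linear TPM, so TPM were rebuilt from these reads. Genes of mean TPM of at least 1 (12007) were fitted as log2(TPM + 1) in limma 3.58.1 (R 4.3.3) with Benjamini-Hochberg adjustment. Folds are on that scale. The fit was tested on simulated data. Replicate numbers do not pair the libraries: deviations of same-numbered libraries had a median correlation of -9e-04. 1 NRF ZT24 library carried the number 5, which is in no sample title. It was used by group only, so leaving out a replicate never removed it. The 6 genes, the lists, the named genes and the genes most alike were chosen with earlier results of these data known. Named list genes and the 3 genes most alike by correlation over group means followed rules set with the design. 1 named list gene is not reported here. Alternatives changed the pseudocount, filter, scaling, replicates, block and time points, and 4 were added after seeing the data: leaving Kap out of the scaling, leaving out libraries high in Adipoq or Alb, and a proximal tubule covariate.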

Additional observations from a re-analysis of the deposited data

Results flagged for a closer look

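In 6 of 84 groups of 4 libraries 1 library stood apart from the other 3 by Dixon's criterion, where chance gives about 1 in 20. For G6pc these were replicate 3 of DRF ZT4 at 802 TPM (the others 908 to 912), replicate 4 of DRF ZT12 at 1747 TPM (1118 to 1137) and replicate 2 of NRF ZT16 at 1131 TPM (1417 to 1451). For Fbp1 it was replicate 1 of NRF ZT4 at 2975 TPM (2111 to 2193), for Pcx replicate 1 of NRF ZT16 at 441 TPM (327 to 341), and for Ppargc1a replicate 4 of NRF ZT0 at 87.5 TPM (66.2 to 69.1).

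The daily waves differed between NRF and DRF by the limma test of the difference itself for 3 genes. The size of the cosine difference was 0.62 log2 for Pck1, 0.76 for G6pc and 0.26 for Ppargc1a.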

How the results depend on the processing

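The NRF waves of Pck1 and G6pc and their difference from DRF, the DRF waves of G6pc and Slc37a4 with their 12-h terms, and the day-night effect of G6pc passed in every alternative run. The replicate numbers do not pair the libraries. With the replicate block, 3 genes in place of 5 had an NRF wave, with amplitudes of 0.16 for both Ppargc1a and Slc37a4 (not called), the cosine difference of Ppargc1a was 0.26 (not called), and 25 in place of 84 of all genes had a 12-h term under NRF.

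That count of 84 was 185 with the proximal tubule covariate, 146 with median-of-ratios scaling, 38 without libraries high in Adipoq, 13 without those high in Alb, and 4 to 67 without 1 replicate. Without 1 replicate the 12-h count under DRF (2972) was 1647 to 2161, the DRF wave count (4355) 2375 to 4303, the feeding count (4236) 2787 to 4578, the interaction count (536) 174 to 397 and the count of regimen means (1102) 371 to 986. Clock-matched calls (10) then numbered 5 to 10, meal-matched calls (10) 5 to 11, and NRF waves among the 6 genes 2 to 4. Without ZT24 they numbered 3.

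The interaction count was 865 without Kap in the scaling, 259 without libraries high in Alb and 1278 with ZT4 and ZT16 only. The count of regimen means was 671 without libraries high in Alb. The day-night count (4392) was 2651 with ZT8 and ZT20 only, and the feeding count 2493 with ZT4 and ZT16 only. Of the 6 genes, the day-night effect called 2 without Kap in the scaling, 2 with the covariate, 3 with ZT4 and ZT16 and 2 with ZT8 and ZT20. The feeding effect called 2 with ZT8 and ZT20 and 0 to 1 without 1 replicate. The interaction called 1 with the covariate and 2 with ZT4 and ZT16, and regimen means 1 with the covariate.

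Calls were lost as follows. The ranges without 1 replicate cover every choice of replicate, and not every choice lost the call. Values on the deposited scale, here and below, are relative to the mean of the gene and are not log2 units. Their sizes do not compare with the others. The NRF amplitude of Ppargc1a was 0.13 without Kap in the scaling, 0.12 with median-of-ratios scaling, 0.02 on the deposited scale, 0.15 without ZT24 and 0.08 to 0.22 without 1 replicate. That of Slc37a4 was 0.16 without libraries high in Adipoq, 0.13 without those high in Alb, 0.15 with no filter, 0.16 without ZT24 and 0.14 to 0.19 without 1 replicate, and that of Pcx 0.17 to 0.21 without 1 replicate. The cosine difference of Ppargc1a was 0.25 without Kap, 0.25 and 0.26 without libraries high in Adipoq and Alb, 0.03 on the deposited scale, 0.22 with median-of-ratios scaling and 0.15 to 0.35 without 1 replicate. Its feeding effect was 0.04 with ZT8 and ZT20 and 0.13 to 0.29 without 1 replicate, where only the 0.13 without replicate 1 lost the call. The 12-h amplitude of Pck1 under DRF was 0.12 to 0.23 without 1 replicate, where the 0.23 without replicate 1 kept the call.

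Signs turned only in effects that were not called over the 8 groups. With ZT8 and ZT20 the day-night effect was 0.07 for Fbp1, -0.03 for Pck1 and -0.06 for Slc37a4, the feeding effect of Slc37a4 -0.07, and the interaction 0.97 for G6pc and 0.14 for Slc37a4. With ZT4 and ZT16 the feeding effect was 0.34 for G6pc and -0.36 for Pck1, the interaction of Pck1 -0.53 and the day-night effect of Ppargc1a 0.27. That last effect was 0.00 without Kap, 0.00 on the deposited scale, 0.01 with median-of-ratios scaling and -0.09 to 0.01 without 1 replicate. The feeding effect of Fbp1 was -0.00 without libraries high in Adipoq, -0.00 on the deposited scale, -0.02 with median-of-ratios scaling and -0.01 to 0.05 without 1 replicate. That of Slc37a4 was -0.00 on the deposited scale, -0.01 with median-of-ratios scaling and -0.03 to 0.08 without 1 replicate, and that of Pck1 -0.02 to 0.15. The interaction of Pck1 was -0.01 without libraries high in Alb, -0.02 with median-of-ratios scaling and -0.14 to 0.33 without 1 replicate, and that of G6pc -0.20 to 0.08. The regimen mean of Pck1 was -0.02 to 0.15. The causes were not tested. At 2357 or more reads per value, the number of libraries, 4 a group, limits the precision more than depth.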
